A study of Mus musculus with 12 samples.

Results

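The genes described here encode 9 calcium-binding proteins of neurons: the calcium buffers Calb1, Calb2 and Pvalb and the neuronal calcium sensors Ncald, Hpca, Hpcal1, Hpcal4, Vsnl1 and Ncs1. They were taken by gene symbol from a table of raw read counts of mouse cerebellum, where all 9 were present among 18394 listed genes and all 9 passed the filter on low counts that left 15467 genes for testing. They were chosen by family and selected on earlier values of this comparison, the fold changes and p-values of cKO against WT, so the differences between the genotypes are given below as a description of these genes and support nothing further.

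The study sequenced messenger RNA from 12 mouse cerebella, of 6 wild-type (WT) animals and 6 conditional knockouts (cKO) of Crfr1, the type 1 receptor for corticotropin-releasing factor, made with the Δα6-Cre driver. The name of the driver refers to the α6 subunit of GABA-A receptors, whose gene, Gabra6, is used mainly by granule cells in this tissue. No litter, age, sex or dissection date is given, nor does any group carry the driver without the knockout, so receptor loss, the driver and DNA linked to either cannot be told apart. Each library comes from 1 cerebellum as the series describes it, and in such bulk tissue fewer cells of a type and less RNA per cell cannot be told apart.

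The WT libraries held 23.8 to 62.1 M counts in total and the cKO libraries 32.3 to 58.7 M. Levels are given as CPM, a gene's count relative to its library's total after TMM scaling. Purkinje cell markers summed to 11059 to 11604 CPM in WT and 10511 to 11577 in cKO, and granule cell markers to 8601 to 8890 and 8205 to 8921, so the defining markers of the labelled tissue were abundant in every library. Brainstem markers were nearly absent: 1 of 17 was tested, and it summed to at most 0.818 CPM. Crhr1, the symbol of the targeted receptor gene, measured 97.6 ± 4.31 CPM in WT and, in cKO, 98.8 ± 6.00 (SD over 6 libraries each), a value that does not check the deletion because counts over the whole gene include undeleted exons and untargeted cells. The driver's namesake Gabra6 averaged 813 CPM in WT and 623 in cKO. Both of these genes lie on chromosome 11, which carries none of the 9 calcium-binding genes.

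Calcium buffers and calcium sensors share the EF hand, a helix-loop-helix fold whose loop holds a calcium ion. Buffers such as calbindin, calretinin and parvalbumin are present at high concentration and shape the size and duration of calcium transients. Neuronal calcium sensors change shape on binding calcium and pass the signal to partner proteins, and most carry a myristoyl lipid on the glycine that follows the first methionine, which in several of them is exposed by calcium and anchors the protein to membranes. In the cerebellum, calbindin is a classic marker of Purkinje cells, parvalbumin of Purkinje cells and molecular layer interneurons, and calretinin of granule cells and a class of unipolar brush cells.

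The division into buffers and sensors is visible at the start of their coding sequences. The first 30 coding bases of each gene are shown 5′ to 3′ from the transcripts of GENCODE release M21 (mm10), with the second codon, the one for the residue that can receive the lipid, in capitals.
Calb1: atgGCAgaatcccacctgcagtcatctctg
Calb2: atgGCTggcccgcagcagcagcccccttac
Pvalb: atgTCGatgacagacgtgctcagcgctgag
Ncald: atgGGGaaacagaacagcaagctgcgccct
Hpca: atgGGCaagcagaacagcaagctgcggcca
Hpcal1: atgGGCaagcagaacagcaagctgcgtcct
Hpcal4: atgGGGaaaaacaacagcaagctggccccc
Vsnl1: atgGGGaaacagaatagcaaactggcccca
Ncs1: atgGGGaaatccaacagcaagttgaagcct
The second codon read GGG or GGC, both glycine codons, in the 6 sensors and was no glycine codon in the 3 buffers. Over the whole coding sequence Hpca and Hpcal1 were the closest pair, with 86.0% identical aligned bases, followed by Hpcal4 and Vsnl1 with 82.4% and by Ncald with Hpcal1 (80.1%) and with Hpca (79.3%). Ncs1 stood farther from the other 5 sensors, at 63.5% to 65.6%, and the buffers Calb1 and Calb2 shared 63.0%. No stretch of 50 bases was shared between any pair of the 9 genes' transcripts, so reads of that length that match exactly could be assigned to one of them.

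Some stretches were shared with other annotated genes. In Hpcal1, 6.50% of the 50-base stretches were also found in the same orientation in other genes' transcripts, in Ncald 1.62% and in Hpca 0.20%, and in the remaining 6 genes none were. In reverse orientation, 284 stretches of Ncald matched Gm28221, against 140 in the same orientation with Gm49397. Hpca also had reverse matches, among them 8 with Tmem54. Ncald (chromosome 15, 37366175 to 37792570, mm10, minus strand) overlaps 11 annotated genes, among them the antisense gene Gm28221 and, on its own strand, Gm49397. Hpca (chromosome 4, 129111570 to 129122036, minus strand) overlaps 1 gene on the opposite strand. How overlapping reads were assigned is not given in the sources used here, so the counts of Ncald, Hpca and Hpcal1 are less certain than those of the other 6 genes.

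**Figure D1:**
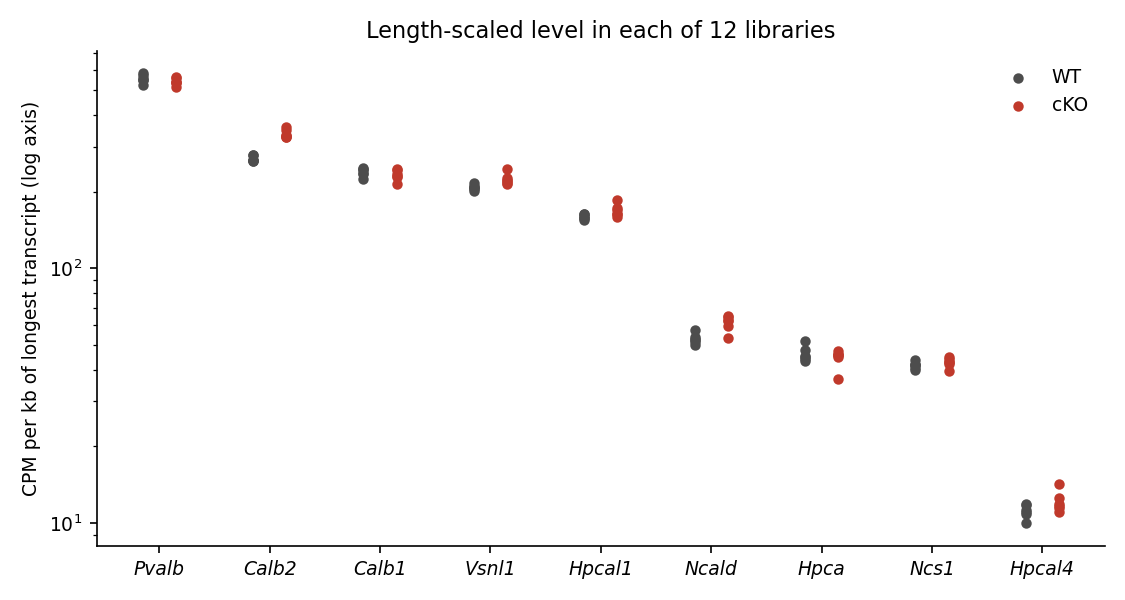
Level in CPM of each gene per kilobase of its longest annotated transcript, on a log axis, in WT and cKO cerebella; points are libraries. Pvalb was highest and Hpcal4 lowest in both genotypes, and the order of the means was the same in both.

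Per kilobase of the longest annotated transcript, the scale on which levels of different genes are set side by side here, the buffers ranked above the sensors. In WT cerebella Pvalb measured 557 ± 20.5 CPM per kb, Calb2 270 ± 6.93 and Calb1 239 ± 8.17 (SD, n = 6 each). Among the sensors Vsnl1, which encodes visinin-like protein, measured 208 ± 5.27 CPM per kb and Hpcal1 159 ± 3.74 (SD, n = 6 each). The other 4 were several times lower, with Ncald at 52.9 ± 2.44, Hpca at 46.2 ± 3.21, Ncs1 at 41.7 ± 1.32 and Hpcal4 at 11.1 ± 0.69 CPM per kb (SD, n = 6 each).

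The order of neighbouring levels was firm in most places. Between neighbours in the WT order the libraries overlapped only for Ncald and Hpca, which kept the order in 5 of 6 libraries, and for Hpca and Ncs1, which kept it in 6 of 6 although their ranges overlapped. In cKO the means kept the same order, from Pvalb at 542 to Hpcal4 at 12.1 CPM per kb, and the overlapping neighbours were Calb1 and Vsnl1 (ordered in 4 of 6 libraries) and Hpca and Ncs1 (5 of 6). The length chosen matters more than the spread: with the median length of a gene's annotated transcripts, Calb1 ranked first at 1369 CPM per kb in WT and Hpca became last at 55.96, because short annotated transcripts pull the median of Calb1 down to 736 bases. The order is therefore a description under a stated length.

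**Figure D2:**
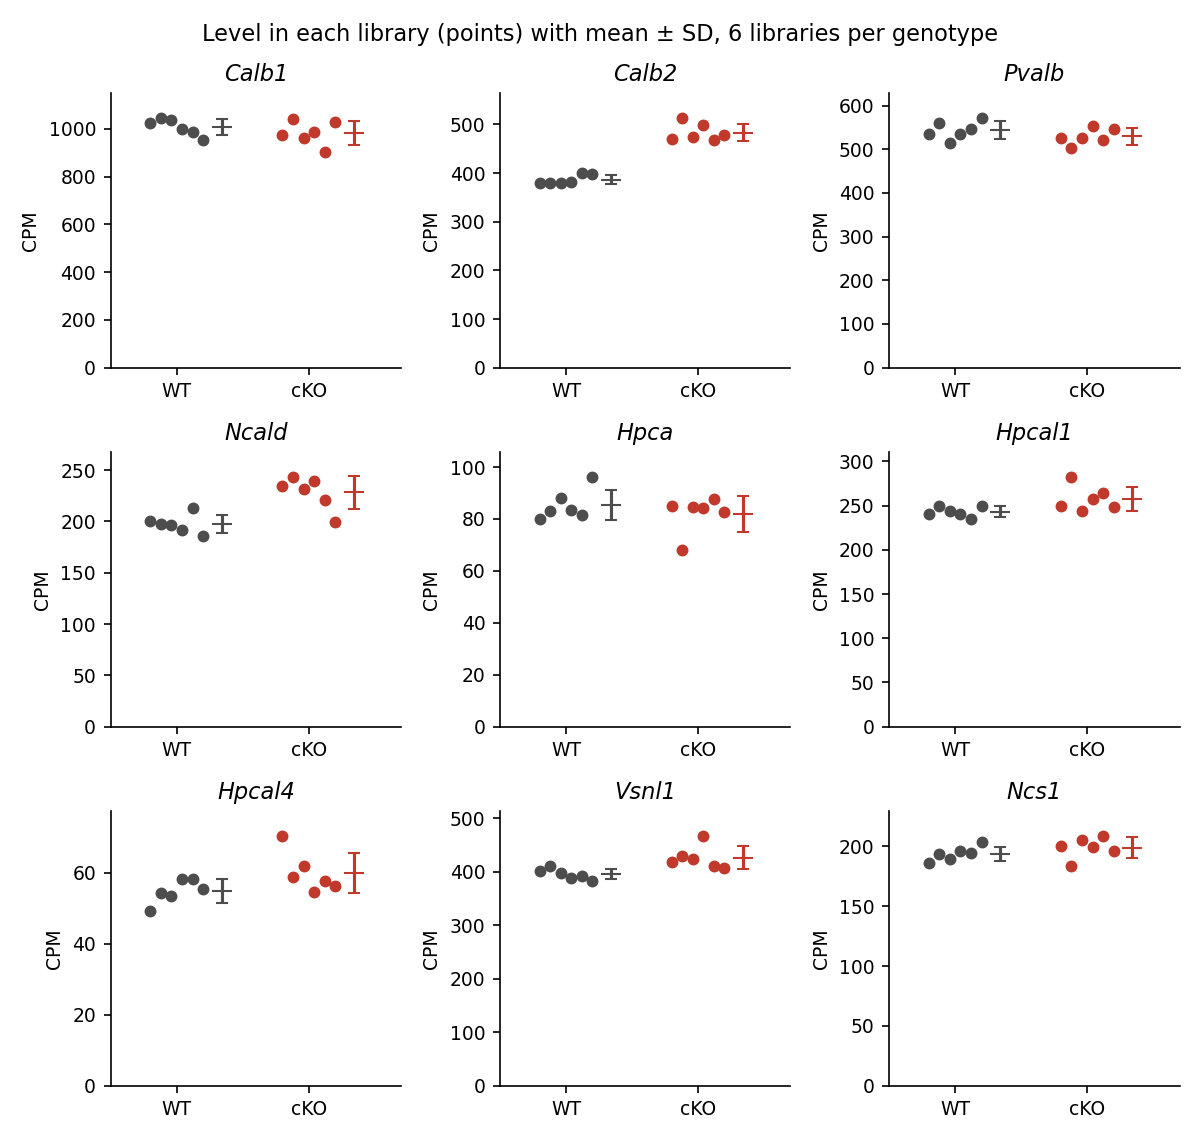
Normalised level of the 9 genes in every library, in CPM on axes that start at 0, with the mean and SD of 6 libraries beside the points. Calb2 alone shows cKO libraries that all lie above all WT libraries, 468 to 512 against 379 to 401 CPM.

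Among the buffers, the calretinin gene Calb2 was higher in cKO cerebella and Calb1 and Pvalb showed no difference that passed the test. Calb2 (chromosome 8, 110137502 to 110168210, mm10, minus strand) had a lowest, median and highest level of 379, 381 and 401 CPM in WT and of 468, 475 and 512 in cKO. Every cKO library lay above every WT library, a pattern that 0.950% of all tested genes showed, while 2.09% were without overlap in either direction. The WT mean was 386 ± 9.92 CPM and the cKO mean 483 ± 18.2 (SD over 6 libraries each), several SDs apart. The fitted difference was 1.25-fold, with a 95% interval of 20.3% to 30.0% (log2 fold change 0.32, SE 0.03, adjusted p = 5.56e-07 in the edgeR quasi-likelihood test over all genes). By p-value it ranked 3rd among the genes higher in cKO.

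Calb1, which encodes calbindin, measured 952, 1013 and 1043 CPM (lowest, median, highest) in WT and 903, 981 and 1042 in cKO. Its groups overlapped almost wholly, and the log2 fold change was −0.03 with a 95% interval of −0.10 to 0.03. Pvalb, which encodes parvalbumin, measured 515, 541 and 570 CPM in WT and 502, 526 and 554 in cKO. Its groups overlapped too, with a log2 fold change of −0.04 and an interval of −0.10 to 0.02. At these levels counting noise is small, since the least covered library still held 24371 counts of Calb1, 12725 of Pvalb and 9040 of Calb2. In percent, the intervals ran from −6.81 to 2.23 for Calb1 and from −6.62 to 1.37 for Pvalb.

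Within a library, Calb2 and Calb1 can be set against each other, which removes the scaling between libraries. The ratio of Calb2 to Calb1 in CPM was 0.384 ± 0.0225 in WT (range 0.364 to 0.418) and 0.492 ± 0.0188 in cKO (range 0.463 to 0.518; SD, n = 6 each). The ranges did not overlap, as the levels of Calb2 alone already showed. A ratio within a library shows an unequal difference and does not say which of its genes differed.

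Among the sensors, Ncald was higher in cKO and the remaining 5 did not pass the test. Ncald encodes neurocalcin delta, a sensor of the visinin-like group. Its lowest, median and highest levels were 186, 197 and 213 CPM in WT and 199, 233 and 243 in cKO. In cKO, 5 of 6 libraries lay above all WT libraries, and replicate 6, at 199 CPM, lay inside the WT range. The difference was 1.16-fold, with an interval of 8.79% to 22.8% (log2 fold change 0.21, SE 0.04, edgeR adjusted p = 0.00773), and it ranked 85th by p-value among the genes higher in cKO.

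The call of Ncald depended on the fit. It held in 19 of 21 alternatives, including each of the 12 fits that left out 1 library, where the log2 fold change was 0.19 to 0.25. With 3 surrogate variables, which stand for unlabelled variation between libraries, the log2 fold change was 0.11 (SE 0.04, edgeR adjusted p = 0.358). Without the 4 libraries highest in markers of cerebellar nuclear neurons, a fit chosen after the data were seen, it was 0.18 (SE 0.05, edgeR adjusted p = 0.105). Calb2 passed in all 21 alternatives, with log2 fold changes of 0.30 to 0.34.

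Vsnl1 lay near the threshold. Its lowest, median and highest levels were 383, 396 and 412 CPM in WT and 407, 422 and 466 in cKO. Of the cKO libraries, 5 lay above all WT libraries and replicate 6, at 407 CPM, lay within them, and it was again this replicate that was lowest of the group, as for Ncald. Its fitted log2 fold change of 0.11 had an SE of 0.03 and a 95% interval of 0.04 to 0.17 (edgeR adjusted p = 0.0674). It passed in 6 of 21 alternatives, among them DESeq2 (adjusted p = 0.0188) and the edgeR fits without cKO replicate 5 (0.0447) or cKO replicate 6 (0.0354), and its log2 fold change was 0.08 to 0.12 when any 1 library was left out.

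Hpcal1 and Hpcal4, hippocalcin-like sensors, had 95% intervals above 0 without passing the test over all genes. Hpcal1 measured 235, 242 and 250 CPM (lowest, median, highest) in WT and 244, 254 and 282 in cKO, and 3 of 6 cKO libraries exceeded all WT libraries. Its log2 fold change was 0.08 (SE 0.03, edgeR adjusted p = 0.221). Hpcal4 measured 49.2, 54.9 and 58.4 CPM in WT and 54.5, 58.2 and 70.3 in cKO. Its groups overlapped, 3 cKO libraries exceeded all WT libraries, and the log2 fold change was 0.12 (SE 0.05, edgeR adjusted p = 0.295). Replicate 1, at 70.3 CPM, stood highest in cKO, and without it the log2 fold change of Hpcal4 was 0.07. With surrogate variables the sign of Hpcal4 turned, to −0.02 (SE 0.04), so no direction is given for it.

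Hpca and Ncs1 had differences within the spread between libraries. Hpca, which encodes hippocalcin, measured 79.9, 83.3 and 96.0 CPM in WT and 68.2, 84.3 and 87.5 in cKO, with a log2 fold change of −0.06 and a 95% interval of −0.17 to 0.05. Its medians ran in the other direction than its means. Replicate 2 of cKO was low at 68.2 CPM while the other 5 lay at 82.8 to 87.5, and replicate 6 of WT was highest of its group at 96.0. The log2 fold change was −0.01 without the former and −0.02 without the latter. Ncs1, which encodes a sensor that stimulates phosphatidylinositol 4-kinase, measured 186, 194 and 204 CPM in WT and 183, 200 and 208 in cKO. Its groups overlapped, with a log2 fold change of 0.04 and an interval of −0.03 to 0.10.

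**Figure D3:**
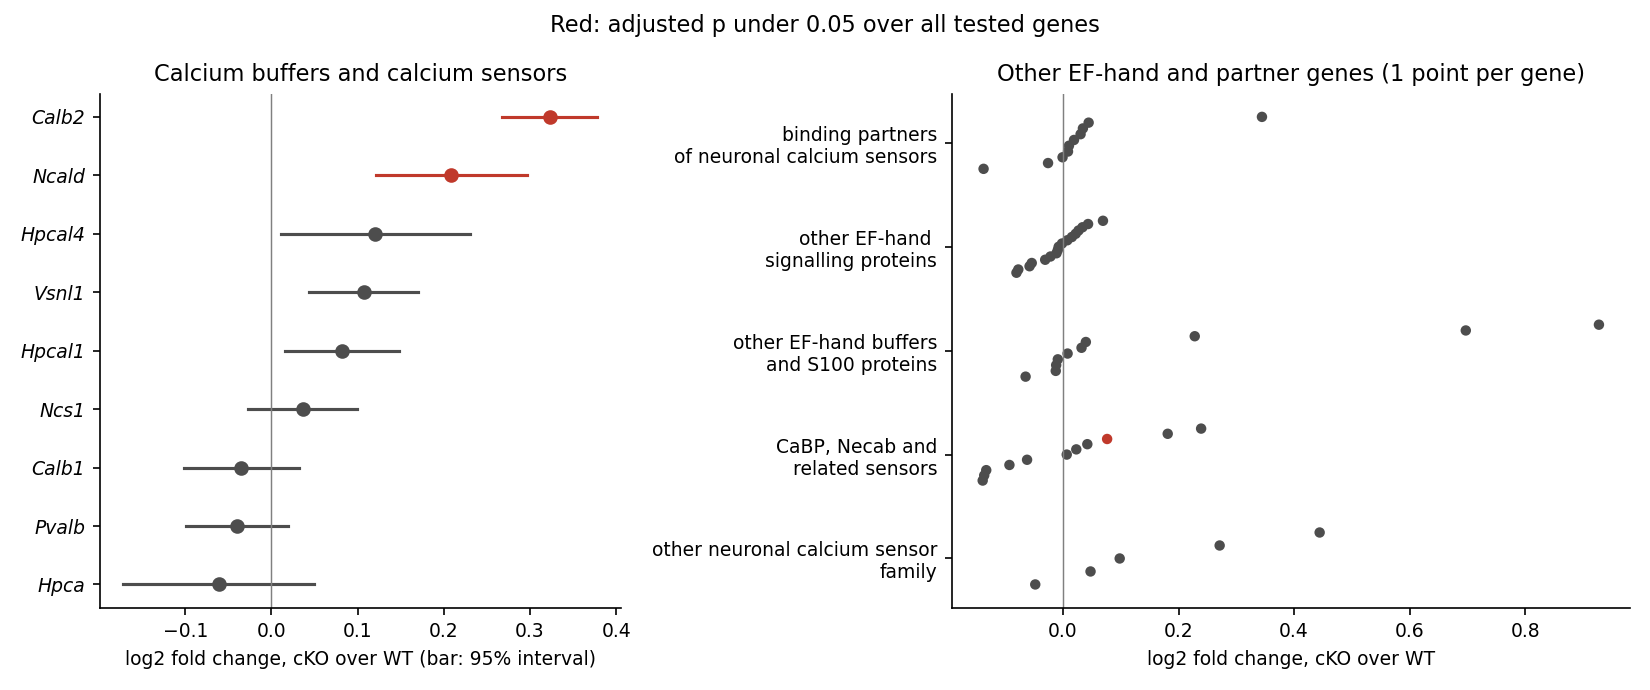
Log2 fold change of cKO over WT for the 9 genes with 95% intervals from the edgeR fit over all tested genes (left), and for the other EF-hand and partner genes by list, 1 point per gene (right); red marks an adjusted p under 0.05. Calb2 at 0.32 and Ncald at 0.21 passed, the intervals of Calb1, Pvalb, Hpca and Ncs1 include 0, and 1 gene of the lists passed.

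Over the 9 genes, 2 were higher, 0 lower and 7 not called, where 2.64% of all tested genes were called in either direction, 1.27% higher and 1.38% lower. Nothing is read from that count, since these genes were chosen with this comparison known. The median log2 fold change was 0.08 over the 9 genes, 6 of them positive and 3 negative, and −0.00027 over all tested genes. At an unadjusted p under 0.05 the edgeR test gave 5 of the 9. Such p-values were common over all 15467 tested genes, where Hpcal4, at an unadjusted edgeR p of 0.0331, ranked only 1733rd. The share of all tested genes under 0.05 is not given here, so nothing is read from unadjusted counts, here or in the lists below. In the authors' deposited DESeq2 table, the log2 fold change was 0.30 for Calb2 (adjusted p = 7.40e-30), 0.18 for Ncald (0.000113) and 0.10 for Vsnl1 (0.0197). The other 6 genes had adjusted p-values of 0.166 or more there. That table comes from the same libraries and is no independent support. DESeq2 as run here gave larger log2 fold changes of 0.32, 0.21 and 0.11, and the reason for the gap was not tested.

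**Figure D4:**
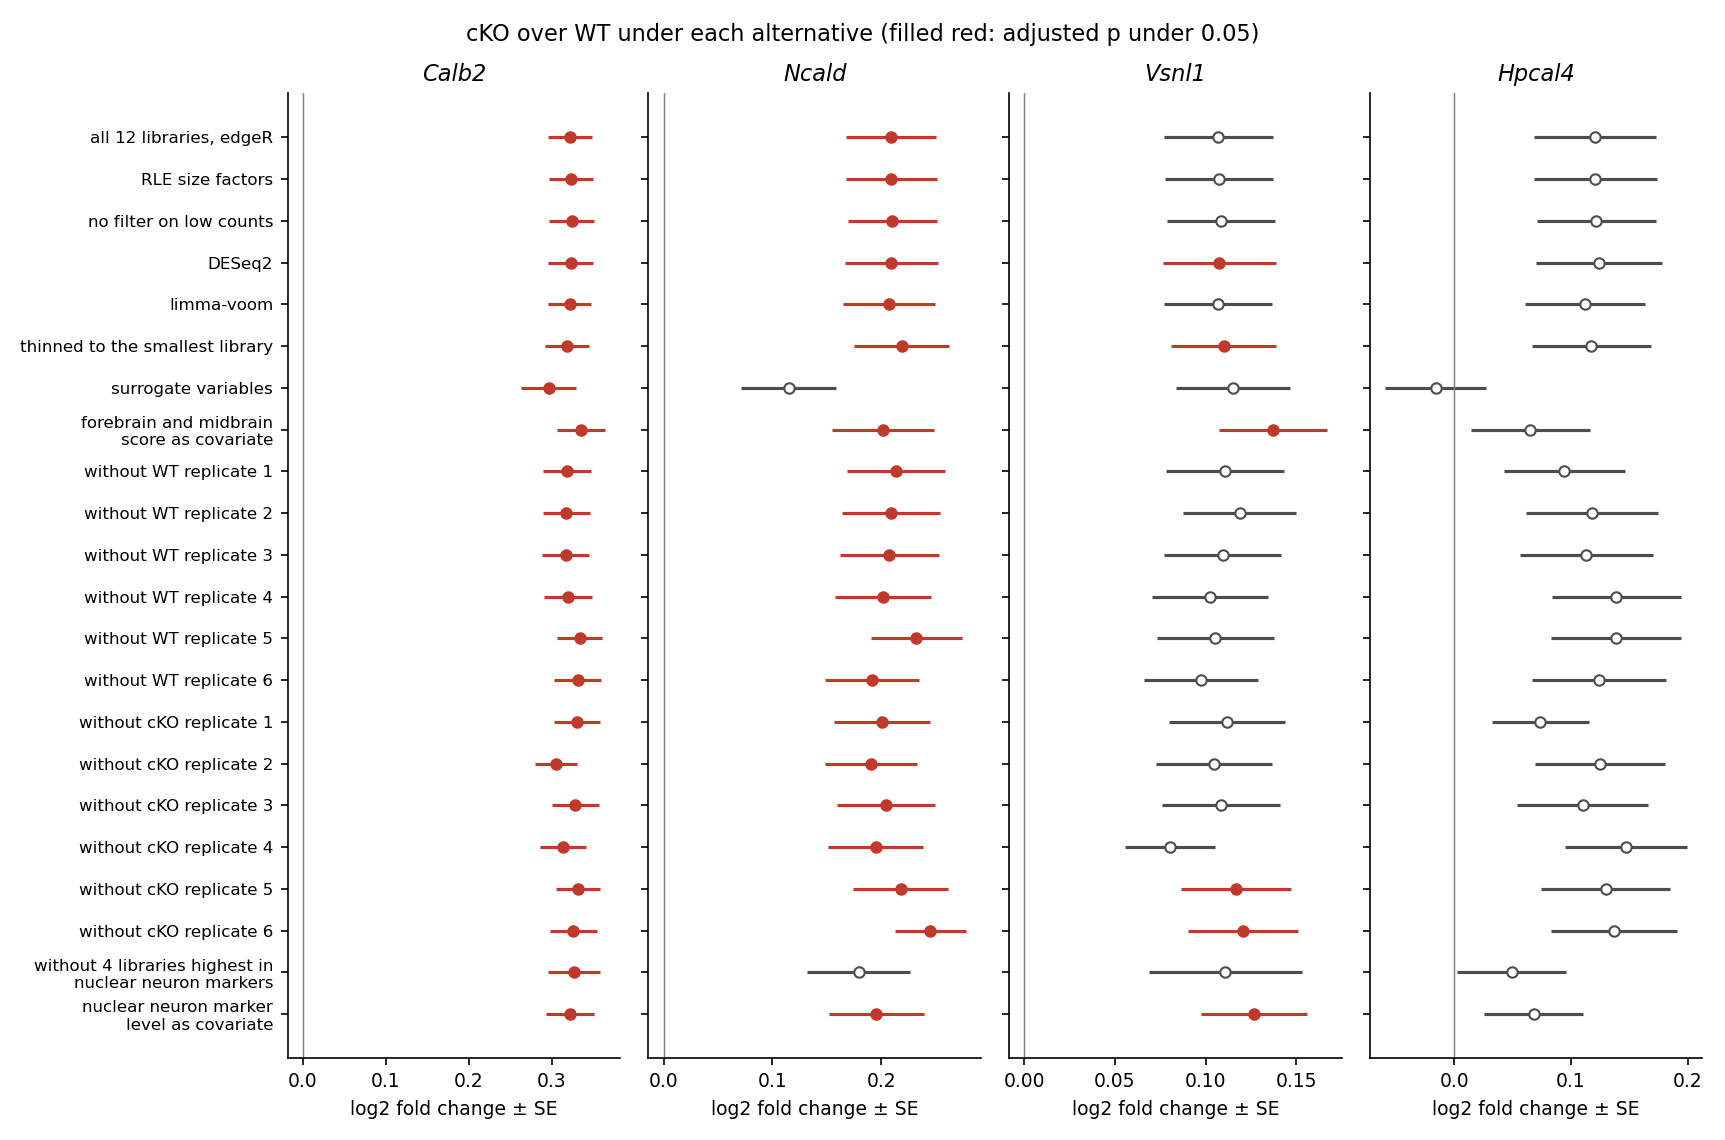
Log2 fold change with its SE for Calb2, Ncald, Vsnl1 and Hpcal4 under each way of fitting the counts; filled red points passed at an adjusted p under 0.05. Calb2 passed in all 21 alternatives, Ncald in 19 and Vsnl1 in 6, and Hpcal4 changed sign with surrogate variables.

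Other EF-hand genes and partners of the sensors were examined in 5 lists, of which 53 genes were tested and 1 passed, a share of 1.89%. In the list of CaBP, Necab and related sensors, 10 of 11 tested genes did not pass. Cabp1, which encodes an EF-hand regulator of calcium channels, and the EF-hand gene Caln1 had log2 fold changes of −0.14 and −0.09 (edgeR adjusted p = 0.123 and 0.160), and Cabp1 passed without cKO replicate 5 (0.0462).

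None of 5 tested relatives in the wider sensor family, the Kcnip and Guca1 genes, passed in the edgeR test, DESeq2 or limma-voom, while 2 had an unadjusted p under 0.05 in edgeR. Kcnip4, which encodes a potassium channel interacting protein, averaged 135 ± 6.37 CPM (WT) and 144 ± 4.23 (cKO; SD over 6 libraries each), with a log2 fold change of 0.10 and an edgeR adjusted p of 0.111, which was 0.0466 without WT replicate 3. Kcnip2 and Guca1b had log2 fold changes of 0.44 and 0.27 from levels of a few CPM, without passing (edgeR adjusted p = 0.318 and 0.380). The list's median log2 fold change was 0.10, with 4 positive and 1 negative. Recoverin and a photoreceptor sensor gene, Rcvrn and Guca1a, had too few counts to test, at most 14 and 4 in any library.

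Other buffers and S100 proteins gave 0 calls of 10 tested genes in the edgeR test and limma-voom and 1 in DESeq2, which was S100a9, the 1 gene with an unadjusted p under 0.05 in edgeR. S100a9, a gene of neutrophils and other myeloid cells, averaged 0.83 ± 0.21 CPM (WT) and 1.60 ± 0.77 (cKO; SD over 6 libraries each). Its edgeR adjusted p was 0.108, and 0.0135 without cKO replicate 6. Its partner S100a8 and the gene S100a10 had log2 fold changes of 0.70 and −0.06 and did not pass, and that of S100a8 was 0.27 without cKO replicate 4. The 17 tested genes of other EF-hand signalling proteins gave 0 calls in the edgeR test, DESeq2 and limma-voom, 1 unadjusted p under 0.05 in edgeR and a median log2 fold change of −0.01. Their smallest p-values belonged to Efhd2, Sri and Cib2, at log2 fold changes of 0.07, −0.06 and −0.08 (edgeR adjusted p = 0.237, 0.387 and 0.429).

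Reported binding partners of the sensors, such as the kinase Pi4kb that NCS1 stimulates, gave 0 calls of 10 tested genes by the same 3 tools and 0 unadjusted p under 0.05 in edgeR, with a median log2 fold change of 0.01. Those with the smallest p-values were Drd2, a dopamine receptor at 1.12 CPM in WT, the clathrin adaptor gene Ap2b1 and the natriuretic peptide receptor gene Npr2, at log2 fold changes of 0.34, 0.03 and 0.03 (edgeR adjusted p = 0.571, 0.657 and 0.681). That of Drd2 was 0.14 without cKO replicate 3 and 0.54 without WT replicate 5. Over the 5 lists, 9 of 53 genes had an unadjusted p under 0.05 in the edgeR test, 30 log2 fold changes were positive and 23 negative.

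Markers of the cells that hold these proteins differed between the genotypes in several lists, and their part in the values of Calb2 and Ncald was not tested. For granule cells, which contain calretinin, 3 of 14 tested markers rose and 5 fell (10 at an unadjusted edgeR p under 0.05). Of the cKO libraries, 5 of 6 had a summed granule cell level below every WT library, at 8205 to 8591 CPM, and cKO replicate 4, at 8921, lay above all of them. Gabra6, the driver's namesake, is part of this list and its sum, at a mean of 813 CPM in WT and 623 in cKO. Of the 14 markers, 7 log2 fold changes were positive and 7 negative. A sum without Gabra6 is not given here. For unipolar brush cells, of which a class contains calretinin, 2 of 6 fell (3 at an unadjusted p under 0.05), Eomes among them from 21.8 ± 2.06 to 11.8 ± 1.17 CPM (SD, n = 6 each). Their summed level was 811 to 854 CPM in WT and 776 to 805 in cKO without overlap, so Calb2 was higher where these markers summed lower. For molecular layer and Golgi interneurons 1 of 13 fell (9 at an unadjusted edgeR p under 0.05), 11 of 13 log2 fold changes were negative, and the sum was 835 to 858 CPM in WT and 725 to 821 in cKO without overlap. Purkinje cell markers gave 0 calls of 15 in edgeR, DESeq2 and limma-voom, with 4 at an unadjusted edgeR p under 0.05. Glia markers gave 2 higher of 13 (5 at an unadjusted edgeR p under 0.05), Cx3cr1 and Csf1r of microglia. Each of these calls was lost in 11 of 21 alternatives, with edgeR adjusted p-values up to 0.473 for Cx3cr1 and 0.616 for Csf1r. Without 1 library, Cx3cr1 lost its call where WT replicate 1, 2, 3, 5 or 6 or cKO replicate 3 was left out, and Csf1r where WT replicate 1, 3, 4 or 5 or cKO replicate 1, 2 or 3 was. The glia list had sums of 5330 to 5714 CPM in WT and 5226 to 5671 in cKO.

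Markers of neighbouring tissue varied between libraries. Cerebellar nuclear neuron markers gave 0 calls of 6 by the same 3 tools (1 unadjusted edgeR p under 0.05), with sums of 63.2 to 96.5 CPM in WT and 56.7 to 107 in cKO, and 3 of the 4 libraries with the highest sums were cKO. Forebrain and midbrain markers gave 1 higher of 17 tested (5 at an unadjusted edgeR p under 0.05), with sums of 308 to 323 and 302 to 326 CPM. Choroid plexus markers gave 0 calls of 6 by the 3 tools (0 at an unadjusted edgeR p under 0.05), with sums of 200 to 637 and 141 to 1022 CPM. The highest, 1022 CPM, was in cKO replicate 6, while the other cKO libraries lay at 141 to 451. This replicate was also lowest of its group in Ncald and Vsnl1, and the part of choroid plexus tissue in that was not tested. With the nuclear neuron level as a covariate, a fit chosen after the data were seen, Calb2 and Ncald passed.

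Variation among animals of the same genotype was measured as the deviation of each library's log2 CPM from the mean of its genotype. Such spread enters the p-values on which the genes were selected, so the SDs are a description. The SD of these deviations over 12 libraries was 0.046 for Calb2, 0.052 for Pvalb, 0.056 for Vsnl1 and for Ncs1, 0.059 for Hpcal1 and 0.063 for Calb1. Ncald, at 0.088, and Hpcal4 and Hpca, at 0.113 and 0.115, varied more. For 10347 genes with a mean of at least 10 CPM the median was 0.059 and the quartiles were 0.0457 and 0.0773, so Ncald, Hpcal4 and Hpca were above the upper quartile and the others between the quartiles. The smallest count of Hpcal4 in a library, 1169, corresponds to a counting error of 2.92%, below its coefficient of variation of 6.22% in WT and 9.42% in cKO.

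**Figure D5:**
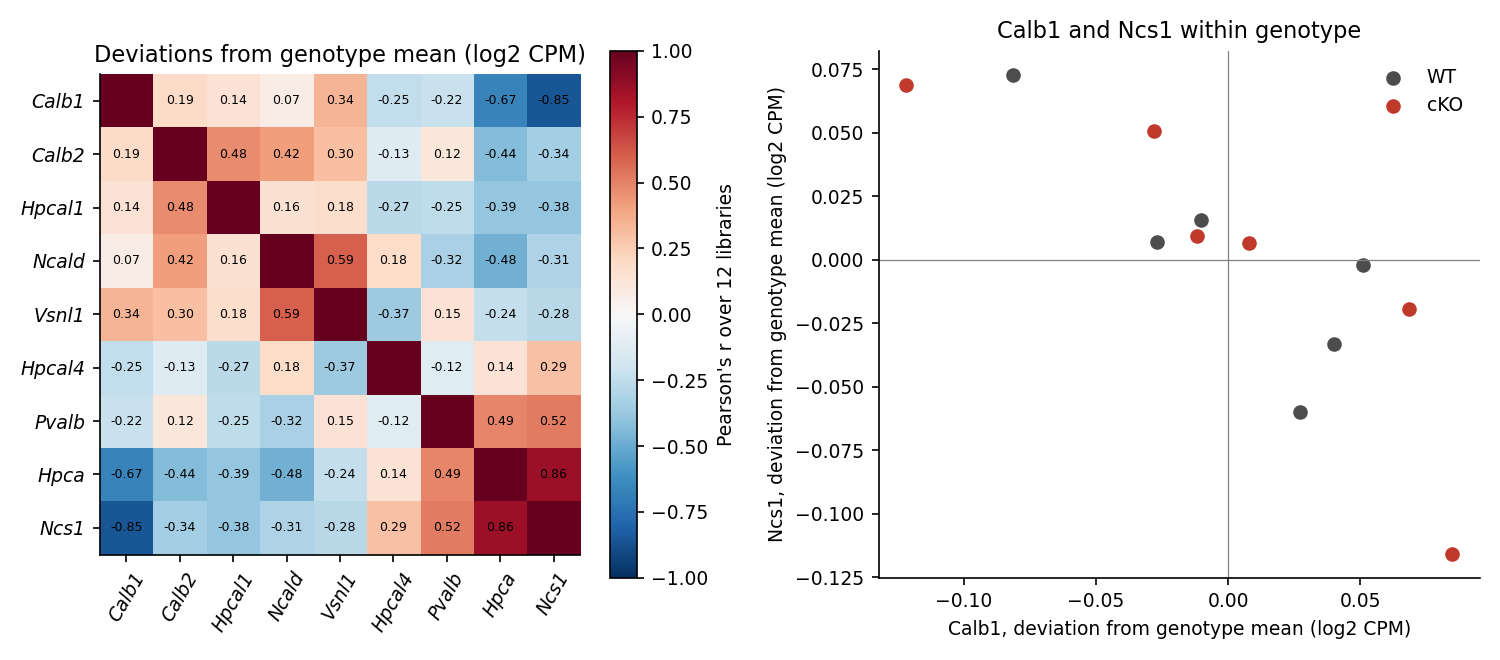
Pearson correlation of within-genotype deviations of log2 CPM over 12 libraries, for all pairs of the 9 genes (left, colour from −1 to 1), and the deviations of Calb1 and Ncs1 in each library (right). Hpca and Ncs1 (r = 0.859) and Calb1 and Ncs1 (r = −0.854) have the strongest correlations of the 36 pairs, and WT and cKO libraries follow the same downward course on the right.

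The 9 genes did not vary together from animal to animal. Of their 36 pairs, 18 correlated positively and 18 negatively, and by Pearson's r 0 passed after Benjamini-Hochberg adjustment over the 36, while 3 had an unadjusted permutation p under 0.05. The calbindin gene Calb1 and the sensor Ncs1 moved in opposite directions (Pearson's r = −0.854, permutation p = 0.00162, adjusted 0.0583, n = 12). By rank this pair passed (Spearman's rho = −0.902, permutation p = 0.00036, adjusted 0.013). The relation was present within each genotype, at r = −0.828 in WT and −0.867 in cKO, and r was −0.803 without the 2 libraries farthest from the median of Calb1. Hpca and Ncs1 moved together (r = 0.859, permutation p = 0.0045, adjusted 0.081; rho = 0.713, permutation p = 0.0136, adjusted 0.244), but r was 0.595 without the 2 farthest libraries. Calb1 and Hpca had r = −0.669 (permutation p = 0.0384, adjusted 0.461; rho = −0.643, permutation p = 0.0261, adjusted 0.313), and −0.501 without the 2 farthest.

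Base composition differed between the transcripts of these genes, and libraries differed in how GC-rich transcripts fared. The longest Calb1 transcript has 36.8% G and C bases, a share below which only 1.0% of the tested genes with a value lie, against 54.5% in Ncs1 and 57.8% in Hpca. Per library, the median deviation of genes with at least 55.6% GC minus that of genes with at most 44.0% ran from −0.0819 to 0.169 on the log2 scale, highest in cKO replicate 5. That difference correlated with Calb1 at r = −0.752 (permutation p = 0.0139, adjusted over 9 genes 0.125; rho = −0.559, permutation p = 0.0904, adjusted 0.462), with Ncs1 at r = 0.605 (p = 0.0846, adjusted 0.381; rho = 0.427, p = 0.189, adjusted 0.462) and with Hpca at r = 0.495 (p = 0.159, adjusted 0.478; rho = 0.399, p = 0.205, adjusted 0.462). None passed the adjustment, and without the 2 farthest libraries r was −0.435 for Calb1, 0.524 for Ncs1 and 0.556 for Hpca. For Calb2 r was −0.06 and for Ncald 0.02. The part of base composition in the relation between Calb1 and Ncs1 was not tested.

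Against the marker lists, 0 of 72 relations passed after adjustment, by Pearson's r or by Spearman's rho. By Pearson's r, 7 had an unadjusted permutation p under 0.05. The relation with the smallest p was that of Pvalb with molecular layer and Golgi interneuron markers (r = 0.67, permutation p = 0.00197, adjusted 0.142; rho = 0.636, permutation p = 0.015, adjusted 0.187), and r was 0.492 without the 2 farthest libraries. Parvalbumin is a protein of basket and stellate cells, the interneurons of the molecular layer. Of the 72 relations, Hpca had the largest r, 0.839, with these markers (permutation p = 0.0128, adjusted 0.274), and 0.648 without the 2 farthest libraries. Its rho was 0.615 (permutation p = 0.0324, adjusted 0.268). Calb1 went with unipolar brush cell markers at r = 0.719 (permutation p = 0.0113, adjusted 0.274), and 0.803 without the 2 farthest libraries. Its rho was 0.741 (permutation p = 0.0101, adjusted 0.187). Hpcal4 went with nuclear neuron markers (r = 0.72, permutation p = 0.019, adjusted 0.274; rho = 0.769, permutation p = 0.00681, adjusted 0.187) and against granule cell markers (r = −0.747, permutation p = 0.0152, adjusted 0.274; rho = −0.769, permutation p = 0.00493, adjusted 0.187). Without the 4 libraries highest in nuclear neuron markers, the log2 fold change of Hpcal4 between the genotypes was 0.05. Vsnl1 went against choroid plexus markers (r = −0.629, permutation p = 0.0611, adjusted 0.476; rho = −0.727, permutation p = 0.0156, adjusted 0.187). Its r was −0.368 without the 2 farthest libraries. Within genotype Calb2 had r = −0.07 with unipolar brush cell markers, 0.12 with granule cell markers and 0.03 with nuclear neuron markers, and Ncald −0.17, 0.02 and 0.26. In size, the largest r of Calb2 was with forebrain and midbrain markers, at −0.563 (permutation p = 0.0894, adjusted 0.503). It was −0.421 without the 2 farthest libraries, and rho was −0.755 (permutation p = 0.0117, adjusted 0.187). The largest of Ncald was with choroid plexus markers, at −0.596 (permutation p = 0.0727, adjusted 0.476; rho = −0.503, permutation p = 0.122, adjusted 0.628). That r was 0.322 within WT, −0.93 within cKO and −0.144 without the 2 farthest libraries.

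Genes with the most similar variation were sought among 10338 other genes with a mean of at least 10 CPM, over the same 12 libraries and after removing the genotype means. For Calb2 they were Ccdc25, Rps3a1 and Larp7, with r of 0.877, 0.876 and 0.870. For Ncald they were Mark1, Arpc4 and Cnppd1, with r of 0.836, 0.831 and 0.822. For Calb1 they were Ube2v2, Mtpn and Uchl5, with r of 0.964, 0.964 and 0.959. These are the highest of many values and are given as a description. All 9 of these genes had log2 fold changes between the genotypes of −0.07 to 0.05 and none was called.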

How the data were processed

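Fresh cerebella gave the RNA, a stranded mRNA kit the libraries, and all 12 shared the sequencing lanes, per the labels' protocols. The authors deposited raw counts per gene symbol. STAR, DESeq2 and mm10 are named in the submitters' processing notes, without versions. Not given in the sources used here are the counting tool, its strand setting and its annotation. The authors also deposited a DESeq2 comparison holding a mean normalised signal, a log2 fold change, a Wald statistic (a score) and p-values, per the file headers. Its sign convention is not stated and was read as cKO over WT.

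The analysis used edgeR 4.0.16 in R 4.3.3 on the deposited counts, with filterByExpr, TMM scaling, the quasi-likelihood test and Benjamini-Hochberg adjustment at 0.05 over 15467 genes in all 12 libraries, without covariates. SE and 95% intervals came from the test statistic. Alternatives used RLE scaling, no filter, DESeq2 1.42.0, limma 3.58.1 (voom), thinned counts, surrogate variables (sva 3.50.0), a forebrain and midbrain score, each library left out and, chosen after the data were seen, 2 fits on nuclear neuron markers. Library pairs of a group differed beyond counting noise (the lowest chi-square divided by its degrees of freedom was 2.68), which does not by itself show separate animals. Each counts as 1 sample because the series describes 1 cerebellum per library. Whether separate litters were used is not given, so p-values measure the spread between these samples.

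Correlations used deviations of log2 CPM (prior count 2) from genotype means, with two-sided tests of 1e+05 permutations within genotype, and these p-values were added to a planned description. The GC values were also added after the data were seen. They cover 96.4% of tested genes.

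The 9 genes, the pathway and marker lists and the tests were chosen with earlier results of these data known. The genes named from each list are those called (at most 6) or, where fewer than 3 were called, the 3 with the smallest p, and the most similar genes are the 3 with the highest r. Marker lists are described by counts and sums. Counts cover every listed gene, and a few genes are left unnamed and not reported here. On simulated counts for 15467 genes in the cKO against WT comparison, 50 genes were changed per fold, each with a mean of at least 10 CPM. The edgeR test recovered 54% at 1.1-fold, 100% at 1.2-fold, 98% at 1.3-fold and 100% at 1.5-fold, with 13 false of 189 calls. Simulated counts were drawn separately for each gene and library, without variation shared between genes. Recovery of genes at lower levels was not covered.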

Additional observations from a re-analysis of the deposited data

Results flagged for a closer look

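Hpca in cKO replicate 2 measured 68.2 CPM, while the other 5 cKO libraries lay at 82.8 to 87.5. Its gap to the nearest library was 0.756 of the group's whole range, above Dixon's 95% critical value for 6 libraries. Of 18 groups checked, 9 genes in each of 2 genotypes, this was the 1 that exceeded the value, and chance gives about 1 in 20. The same library was among those highest in nuclear neuron markers, at 95.2 CPM, and lowest in Ncs1, at 183 CPM. It was also the lowest of the 12 libraries in molecular layer and Golgi interneuron markers, at 725 CPM. Within genotype, Hpca had r = 0.839 with those interneuron markers (0.648 without the 2 farthest libraries) and −0.209 with nuclear neuron markers. The part of any of these in the value of Hpca was not tested.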

How the results depend on the processing

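Over 21 alternatives, the fold changes of the 9 genes gave 189 values, of which 179 kept their direction and their side of the threshold. Calb2 passed in all 21 and Ncald in 19. The number of the 9 genes called was 1 with surrogate variables and 1 without the 4 libraries highest in nuclear neuron markers, against 2 otherwise or 3 where Vsnl1 passed. Over all genes the calls numbered 189 with surrogate variables and 157 without the 4 libraries, against 409, and 577 with DESeq2, and without 1 library they ran from 272 (without WT replicate 3) to 459. Of these, 165 and 145 were among the 409. The cause was not tested, though the fit without 4 libraries also has fewer samples. With surrogate variables the log2 fold change of Calb1 turned to 0.0077 (0.01), that of Hpcal4 to −0.016 (−0.02), that of Kcnip2 to −0.12 and that of Drd2 to −0.077 (−0.08), none of them called in any of the 21 fits.

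The list of CaBP, Necab and related sensors had 0 calls with no filter, with surrogate variables, with the forebrain and midbrain score, without the 4 libraries and with the nuclear neuron level as covariate, and 0 to 2 without 1 library. The S100 list had 1 with DESeq2 and 1 with thinned counts, and 0 to 1 without 1 library, as had the wider sensor family. With median transcript lengths the WT levels were 1369 CPM per kb for Calb1, 307.8 for Calb2, 219.9 for Vsnl1, 219 for Hpcal1, 138.6 for Ncald, 91.43 for Hpcal4, 75.27 for Ncs1 and 55.96 for Hpca. A prior count of 0.5 in place of 2 kept the direction of the 3 correlations recomputed, Calb1 with Ncs1, Hpca with Ncs1 and Calb1 with Hpca.

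No paired analysis was possible because the replicate numbers only name libraries in order of deposit and pair none across genotypes. Each of these genes had at least 1169 counts in every library. Mean depth was 36.3 M counts in WT and 49.1 M in cKO. With counts thinned to the smallest library, Calb2 and Ncald still passed, and Vsnl1 passed too (edgeR adjusted p = 0.0457). Any other part of depth in the differences was not tested.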
